A study of Danio rerio with 3 samples.

Results

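GABA and glutamate are the main inhibitory and excitatory transmitters of the vertebrate brain, and 8 zebrafish genes that mark the neurons using them are described here. They were taken from the deposited count matrices by their symbols, 8 of 32057 features, each found in 1 row. The GABA set holds gad1b, gad2 and slc32a1, the glutamate set holds slc17a6a, slc17a6b and slc17a7a, and the GABA transporters slc6a1a and slc6a1b are kept apart. The study asked how zinc affects the zebrafish brain (Danio rerio) and profiled brain cells with 10x Genomics droplets, in which each droplet has a barcode and each captured transcript molecule a unique molecular identifier (UMI). The labels name the treatments Ctrl, Zn10 and Zn15, with 1 library each. The sources used here do not give the unit of 10 and 15, how and for how long fish were exposed, their strain, age and sex, or how many went into a library.

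A GABA neuron makes its transmitter from glutamate with glutamic acid decarboxylase (gad1b, gad2) and loads it into vesicles with the vesicular inhibitory amino acid transporter (slc32a1), which glycine neurons also use. Released GABA is taken back up by plasma membrane GABA transporters of the GAT1 kind (slc6a1a, slc6a1b), which sit on neurons and on some glia. A glutamate neuron is recognised by its vesicular glutamate transporters: in fish the slc17a6 pair (VGLUT2) is used through much of the brain and slc17a7a (VGLUT1) in fewer regions. Most neurons carry one of these vesicular systems, and neurons with both are known from several brain regions of vertebrates.

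Depth was low. The libraries held 974866 to 1698707 UMIs in 2850 to 5679 barcodes, and their medians lay between 240 and 271 UMIs per barcode. Levels are given as UMIs per 1000000 (CPM), summed over a library, with exact Poisson intervals; the intervals of shares are exact Clopper-Pearson and those of ratios exact conditional binomial, each at 95%. These intervals cover counting error only, no spread between fish or preparations is known, and a treatment with 1 library allows no test. Each ratio therefore compares libraries, not conditions. The Zn10 to Ctrl and Zn15 to Ctrl ratios share the Ctrl library, and the Zn15 to Zn10 ratio reuses both treated libraries. At least 1 UMI of a member was found in 19.9% of Ctrl, 24.1% of Zn10 and 16.6% of Zn15 barcodes. Pairs of libraries shared 4 to 8 barcode sequences, of which 0 had member UMIs in both. In a library sum, fewer cells of a type and less RNA per cell cannot be told apart.

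Free RNA sets a lower limit on what a share can show. In the cluster of microglia or macrophage-like barcodes, which should lack these genes, the GABA set was found in 10 (1.17%) and the glutamate set in 18 of 857 barcodes, at a median of 406 UMIs. In the oligodendrocyte-like cluster the shares were 1.13% and 3.07% of 1236 barcodes, at a median of 277.5 UMIs. Over whole libraries the GABA set was found in 4.97% to 8.32% and the glutamate set in 8.19% to 11.4% of barcodes. The library shares were thus above those of both non-neuronal clusters.

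Of the GABA set, gad2 was the most abundant transcript by UMIs. Its level was 260.8 CPM (443 UMIs; interval 237.1 to 286.2) in Ctrl, 325.2 CPM (317 UMIs; 290.4 to 363.0) in Zn10 and 168.8 CPM (276 UMIs; 149.5 to 190.0) in Zn15. By level Zn10 was the highest and Zn15 the lowest, and none of the 3 CPM intervals overlapped. The ratio was 1.25 (1.08 to 1.44) for Zn10 over Ctrl, 0.647 (0.555 to 0.754) for Zn15 over Ctrl and 0.519 (0.440 to 0.612) for Zn15 over Zn10. Barcodes with gad2 made up 4.65% (4.12 to 5.23), 5.75% (4.93 to 6.67) and 3.36% (2.88 to 3.89) of Ctrl, Zn10 and Zn15. By share the intervals of Ctrl and Zn10 overlapped, and that of Zn15 lay below both. Of the microglia-like barcodes 0.933% held gad2, and of the oligodendrocyte-like barcodes 0.809%.

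The second decarboxylase gene, gad1b, was found at 104.2, 118.0 and 69.7 CPM in Ctrl, Zn10 and Zn15, from 177, 115 and 114 UMIs. The vesicular transporter slc32a1 was found at 97.1, 109.8 and 56.3 CPM, from 165, 107 and 92 UMIs. By level both genes kept the order of gad2, with Zn15 lowest, and for both the intervals of Ctrl and Zn10 overlapped. In Zn15 over Ctrl, gad1b had a ratio of 0.669 (0.524 to 0.852) and slc32a1 a ratio of 0.579 (0.444 to 0.752). In Zn10 over Ctrl the same genes had ratios of 1.13 (0.887 to 1.44) and 1.13 (0.878 to 1.45), both with 1 inside the interval. Summed, the GABA set was at 462.1, 552.9 and 294.8 CPM in Ctrl, Zn10 and Zn15.

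Of the GABA uptake genes, slc6a1b was read far more often than its copy slc6a1a. The level of slc6a1b was 369.7 CPM (628 UMIs) in Ctrl, 520.1 CPM (507 UMIs) in Zn10 and 295.4 CPM (483 UMIs) in Zn15. The 3 intervals did not overlap, with Zn10 again highest, and the ratios were 1.41 (1.25 to 1.58) for Zn10 over Ctrl and 0.799 (0.708 to 0.901) for Zn15 over Ctrl. It was in 6.43% (5.80 to 7.10), 8.32% (7.33 to 9.39) and 5.49% (4.88 to 6.15) of Ctrl, Zn10 and Zn15 barcodes. By share the intervals of Ctrl and Zn15 overlapped, and that of Zn10 lay above both. The level of slc6a1a was 25.3 CPM (43 UMIs), 36.9 CPM (36 UMIs) and 17.1 CPM (28 UMIs), in the same order. Its intervals overlapped between Ctrl and each treated library and separated Zn10 from Zn15, at 25.9 to 51.1 against 11.4 to 24.8 CPM. The sources used here do not say how reads shared by paralogs such as slc6a1a and slc6a1b were counted.

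The glutamate set was slc17a6b almost alone. Its level was 450.3 CPM (765 UMIs; 419.0 to 483.4) in Ctrl, 701.6 CPM (684 UMIs; 650.0 to 756.2) in Zn10 and 412.3 CPM (674 UMIs; 381.7 to 444.6) in Zn15. Zn10 stood above the other libraries, and the intervals of Ctrl and Zn15 overlapped. The ratio was 1.56 (1.40 to 1.73) for Zn10 over Ctrl, 0.915 (0.824 to 1.02) for Zn15 over Ctrl and 0.588 (0.528 to 0.655) for Zn15 over Zn10. It was found in 8.77%, 11.0% and 8.01% of Ctrl, Zn10 and Zn15 barcodes, which made it the most widely detected member in each library. Its paralog slc17a6a gave 13, 11 and 4 UMIs, or 7.65, 11.3 and 2.45 CPM. The VGLUT1 gene slc17a7a gave 5, 8 and 8 UMIs, or 2.94, 8.21 and 4.89 CPM. For slc17a7a all 3 intervals overlapped, so no difference between libraries was detectable at this depth. For slc17a6a the interval of the Zn15 to Zn10 ratio, 0.217 (0.0504 to 0.732), left out 1, on 15 UMIs in all.

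**Figure D1:**
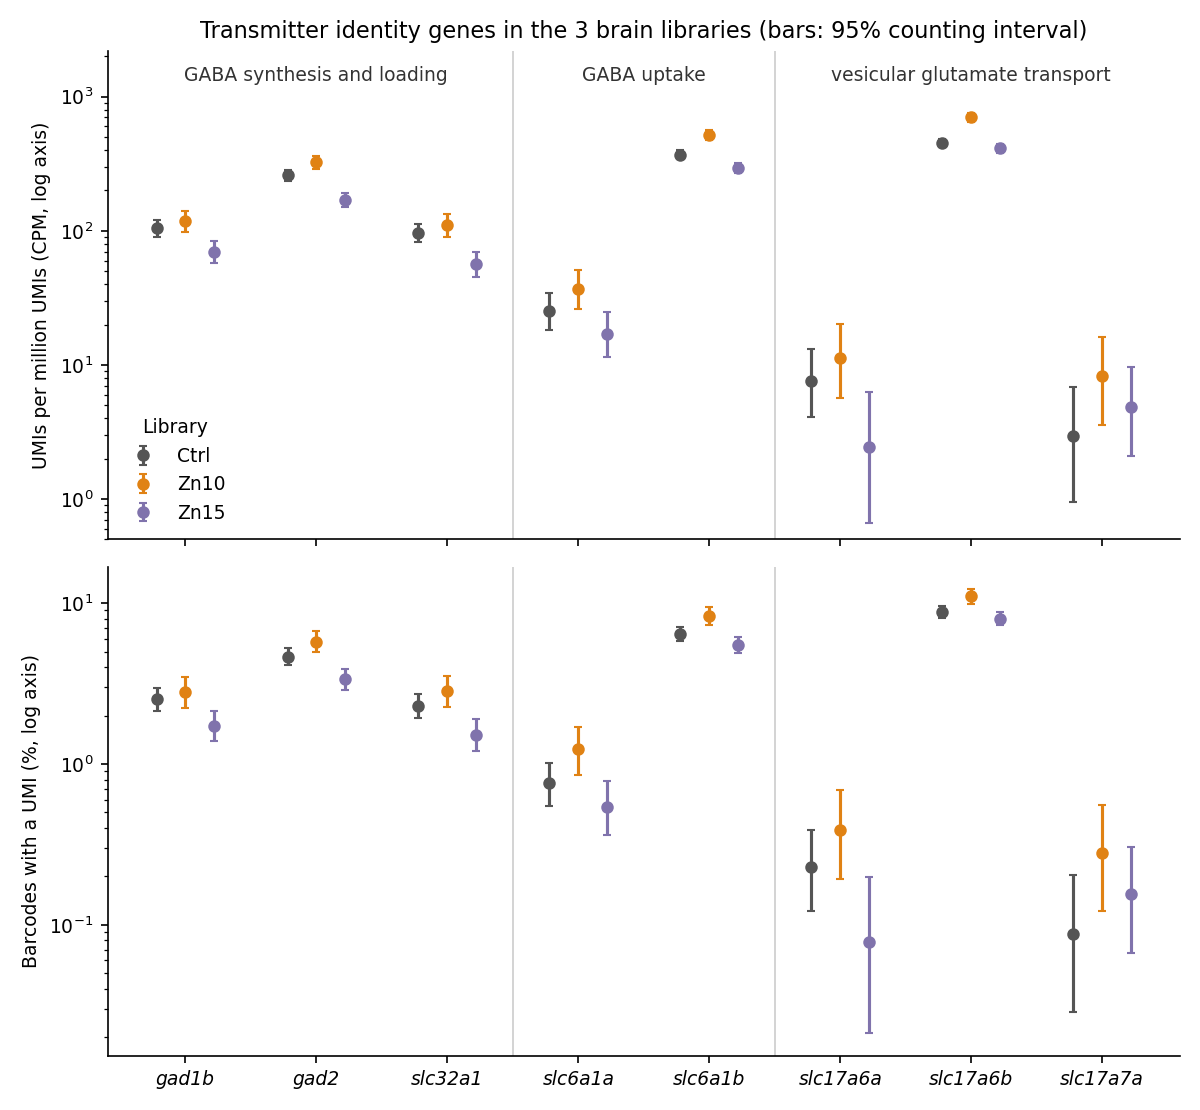
Level (CPM, log axis) and share of barcodes with at least 1 UMI (percent, log axis) of the 8 genes in the Ctrl, Zn10 and Zn15 libraries; points are 1 library each and bars are 95% counting intervals. Zn10 is highest and Zn15 lowest for gad1b, gad2, slc32a1, slc6a1a, slc6a1b, slc17a6a and slc17a6b, while slc17a7a rests on 5 to 8 UMIs per library.

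A gene was counted as past the threshold at 1.5-fold with at least 20 UMIs over the libraries compared, with no test. Between Zn10 and Ctrl, 1 of 7 members tested was past it upward (slc17a6b), where 16.4% of 8067 genes tested were, and 0 were past it downward, against 10.7% of genes. Between Zn15 and Ctrl, 2 of 6 members tested were past it downward (gad2 and slc32a1), against 14.2% of 8697 genes, and 0 upward, against 11.4%; gad1b, at 0.669, lay just inside the threshold. Between Zn15 and Zn10, 6 of 6 members tested were past it downward, against 18.5% of 8002 genes, and 0 upward, against 9.11%.

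The calls against Ctrl depended on the scaling. Median-of-ratios scaling shifted all genes by 0.09, −0.06 and −0.14 (log2) for Zn10 over Ctrl, for Zn15 over Ctrl and, between the treated libraries, for Zn15 over Zn10. With these shifts taken off, slc17a6b in Zn10 over Ctrl was at a log2 ratio of 0.55 and gad2 in Zn15 over Ctrl at −0.57, both just short of the threshold. The counts then became 0 of 7 upward and 1 of 6 downward (slc32a1, at −0.73), and stayed 6 of 6 downward for Zn15 over Zn10, with backgrounds of 12.9% of genes upward in Zn10 over Ctrl, 1050 of 8697 genes downward in Zn15 over Ctrl and 13.1% downward in Zn15 over Zn10. The median log2 ratio of the members tested was 0.49, −0.57 and −0.88 in the 3 comparisons, where the median of all genes tested was 0.09, −0.06 and −0.14.

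The 2 main shifts had different makeups. For the GABA set in Zn15 over Ctrl, the share of barcodes had a ratio of 0.678 (0.578 to 0.794), while UMIs per positive barcode had a ratio of 0.998. The lower GABA level of Zn15 thus lay in the share of positive barcodes. With so few UMIs per positive barcode (1.89 in Ctrl and 1.88 in Zn15), this does not tell fewer GABA cells from less RNA per cell. For slc17a6b in Zn10 over Ctrl, the share had a ratio of 1.26 (1.09 to 1.45) and UMIs per positive barcode a ratio of 1.42, from 1.54 in Ctrl to 2.18 in Zn10, so both parts were higher. Neither part is corrected for depth, whose median was 271 UMIs in Zn10 and 240 UMIs in Ctrl. The ratio of UMIs per positive barcode has no interval. Thinning every barcode to 200 UMIs kept 3620, 2026 and 3464 barcodes of Ctrl, Zn10 and Zn15. The GABA set was then found in 6.27%, 6.81% and 4.07% of these and the glutamate set in 7.38%, 9.33% and 5.95%. In Zn15 over Ctrl these shares had ratios of 0.649 (0.522 to 0.804) and 0.806 (0.669 to 0.971), so both sets were lower. The thinned share of slc17a6b had a ratio of 1.24 (1.02 to 1.51) for Zn10 over Ctrl and 0.814 (0.674 to 0.981) for Zn15 over Ctrl. For gad2 the share after thinning had a ratio of 1.13 (0.860 to 1.49) for Zn10 over Ctrl. For Zn15 over Ctrl this ratio was 0.655 (0.497 to 0.860). The thinned share of gad1b in Zn15 over Ctrl was at 0.680 (0.447 to 1.02), with 1 inside the interval. Its ratio depended on the thinning depth, at 1.01 when thinned to 100 UMIs and 0.583 when thinned to 400 UMIs.

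The gap between Zn15 and Ctrl was widest in the deepest barcodes. Among barcodes of 500 UMIs or more, the GABA set was found in 18.7% of 673 in Ctrl, 15.7% of 478 in Zn10 and 6.93% of 707 in Zn15. The glutamate set was found there in 16.3%, 19.5% and 9.34%. Below 200 UMIs the GABA set was found in 3.21%, 3.88% and 3.20%, so the libraries were nearly level there. At least 1 UMI of the general neuron markers was seen in 70.0%, 72.9% and 68.8% of barcodes and 3 or more in 36.7%, 44.0% and 37.3%, so Zn10 was highest for these too. Their summed level was 8748 CPM in Ctrl, 10140 CPM in Zn10 and 7809 CPM in Zn15. Among barcodes with such a UMI, those with the GABA set alone made up 9.41% (8.52 to 10.4), 10.5% (9.21 to 11.9) and 6.46% (5.67 to 7.32) of Ctrl, Zn10 and Zn15. The Zn15 interval stayed apart from both others in that population, and the part of depth and of cell makeup in the difference was not tested.

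The balance between both identities was computed after these values were seen. Among barcodes with one identity only, 398 of the GABA set and 491 of the glutamate set in Ctrl gave a GABA share of 44.8% (41.5 to 48.1). In Zn10, 225 and 314 barcodes gave 41.7% (37.5 to 46.0), and in Zn15, 250 and 416 gave 37.5% (33.8 to 41.3). The Zn15 interval lay just under that of Ctrl. After thinning to 200 UMIs the shares were 45.9%, 42.1% and 40.5%, and the intervals of Ctrl and Zn15 overlapped. Inside cluster 2, described below, the shares were 60.6%, 62.7% and 59.5%, with overlapping intervals.

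Both identities were rarely found in 1 barcode. Barcodes with a UMI of each set numbered 18 in Ctrl, 12 in Zn10 and 6 in Zn15. The number that the shares of the sets would give if multiplied within 10 bins of depth was 47.0, 32.5 and 23.1. Observed over product was 0.383 (0.227 to 0.605) in Ctrl, 0.369 (0.191 to 0.645) in Zn10 and 0.260 (0.0955 to 0.566) in Zn15. All 3 values were below 1 with intervals that left out 1, and the intervals overlapped each other. Seen from the GABA side, the glutamate set was found in 4.33%, 5.06% and 2.34% of barcodes with the GABA set, and in 9.33% (Ctrl) and 8.49% (Zn15) of barcodes without it.

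Most barcodes with both identities held few UMIs of at least one of them. In Ctrl 9 of 18, in Zn10 3 of 12 and in Zn15 3 of 6 had exactly 1 UMI of each set, and 3, 3 and 1 had 2 or more of each. In Zn10, 8 of the 12 lay among the deepest 5% of barcodes, and their median depth was 842 UMIs, against 435 UMIs in Ctrl and 433 UMIs in Zn15. No doublet caller was run, and the part of doublets and of free RNA was not tested. Among barcodes with 3 or more identity UMIs, 85 in Ctrl held the GABA set alone, 51 the glutamate set alone and 9 both. The same numbers were 64, 73 and 9 in Zn10 and 60, 56 and 3 in Zn15, so mixed barcodes were 6.21%, 6.16% and 2.52%.

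Most barcodes showed neither identity at this depth. Even among those with 3 or more UMIs of general neuron markers, 70.3% in Ctrl, 66.7% in Zn10 and 75.8% in Zn15 had no UMI of either set. A barcode without these genes is therefore not one that lacks them.

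**Figure D2:**
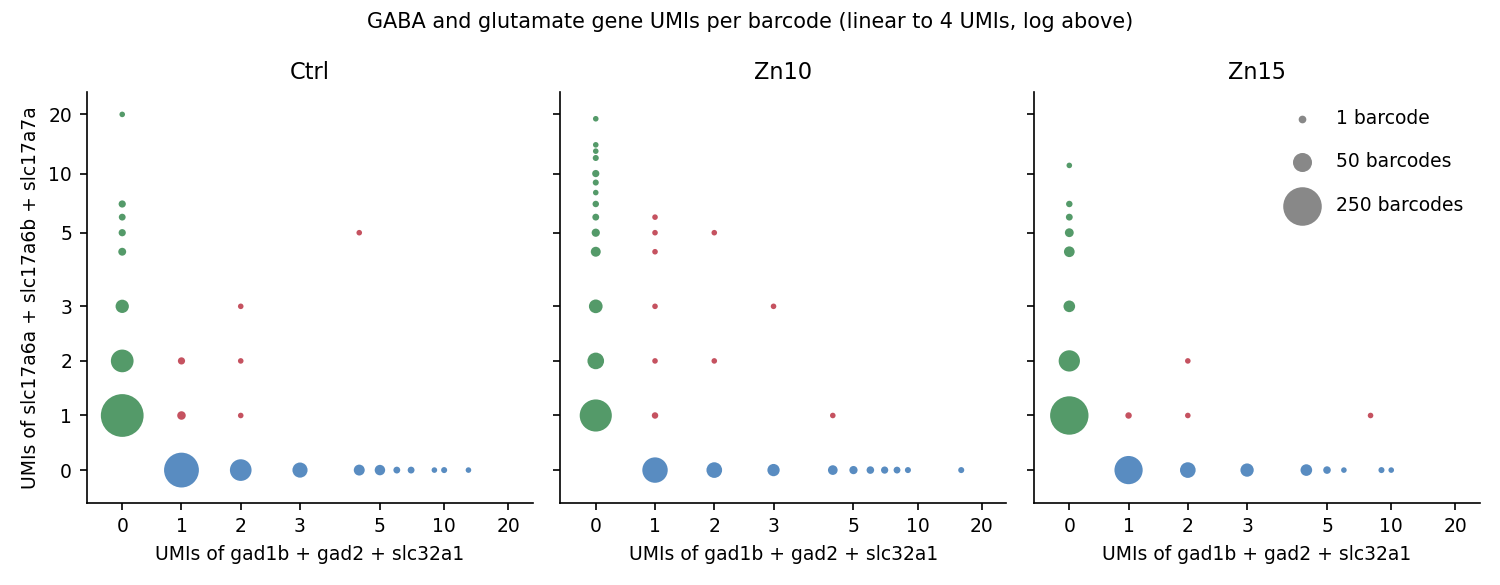
UMIs of the GABA set (x) against UMIs of the glutamate set (y) per barcode in the Ctrl, Zn10 and Zn15 libraries, on axes that are linear near 0 and logarithmic above; the area of a point gives the number of barcodes. Points lie along the axes, and 18, 12 and 6 barcodes lie off both.

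Pair by pair, genes of one identity were found together more often than the product of their shares and genes of different identities less often. Of 28 pairs, 16 had a product of at least 3 barcodes over the 3 libraries. The pair gad1b and slc32a1 was highest, with 83 barcodes against 11.0 (ratio 7.56, 6.02 to 9.37). The decarboxylases gad1b and gad2 shared 135 barcodes against 22.1 (6.11, 5.12 to 7.23), and gad2 with slc32a1 shared 129 against 21.1 (6.12, 5.11 to 7.28). The 3 intervals overlapped, so no order among them could be told. By library, gad1b with slc32a1 was at 6.13 (4.22 to 8.61) in Ctrl, 6.04 (3.87 to 8.98) in Zn10 and 16.1 (10.5 to 23.5) in Zn15. For gad1b with gad2 the values were 4.88 (3.67 to 6.35), 4.97 (3.48 to 6.88) and 12.3 (8.96 to 16.6). In both pairs the Zn15 interval lay above those of Ctrl and Zn10. Shares within gad1b barcodes did not set Zn15 apart. For slc32a1 the intervals of this share were 16.4% to 30.9%, 20.3% to 41.3% and 20.1% to 39.8% in Ctrl, Zn10 and Zn15. For gad2 they were 30.5% to 47.0%, 33.8% to 56.5% and 38.7% to 60.2%. The higher ratios of Zn15 are thus not read as closer pairing of these genes.

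The VGLUT2 copies were also found together: slc17a6a and slc17a6b shared 14 barcodes against 3.48, a ratio of 4.02 with an interval above 1. Across identities, slc17a6b shared 27 barcodes with gad2 against 68.9 (0.392, 0.258 to 0.570) and 12 with gad1b against 35.9 (0.335, 0.173 to 0.585). With the vesicular transporter slc32a1 it shared 3 barcodes against 33.9 (0.0884, 0.0182 to 0.258). The interval for slc32a1 just met that for gad2, so a stronger separation of both vesicular transporters was not clear of counting error. Each of the 3 cross-identity pairs that could be read lay below 1.

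The uptake genes were read against both identities. The gene slc6a1b was found with gad1b 5.12 times, with slc32a1 4.46 times and with gad2 4.01 times as often as the product, and with slc17a6b 0.455 times (0.332 to 0.609). It was present in 36.7%, 42.2% and 39.6% of barcodes with the GABA set alone in Ctrl, Zn10 and Zn15. In barcodes with the glutamate set alone it was present in 2.44%, 4.78% and 3.61%, and in those with neither set in 4.30%, 5.52% and 3.75%. The glutamate barcodes thus held slc6a1b no more often than barcodes with no identity read. Its copy slc6a1a was also found with GABA genes (4.16 times with gad1b), but with slc17a6b it was at 1.60 (0.988 to 2.44), on 21 barcodes against 13.2. The pooled intervals of both copies with slc17a6b did not overlap, but the libraries did not all show this. For slc6a1a with slc17a6b the value was 2.04 (0.977 to 3.75) in Ctrl, 1.88 (0.937 to 3.36) in Zn10 and 0 barcodes against 2.39 in Zn15, where the interval reached 1.54. For slc6a1b it was 0.339 (0.185 to 0.569), 0.461 (0.258 to 0.760) and 0.639 (0.365 to 1.04). The intervals of the copies were thus apart in Ctrl and Zn10 and overlapped in Zn15, where slc6a1a was in 0 of 416 barcodes with the glutamate set alone. Over all libraries 29 barcodes held both copies against 11.3 (2.57, 1.72 to 3.69).

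**Figure D3:**
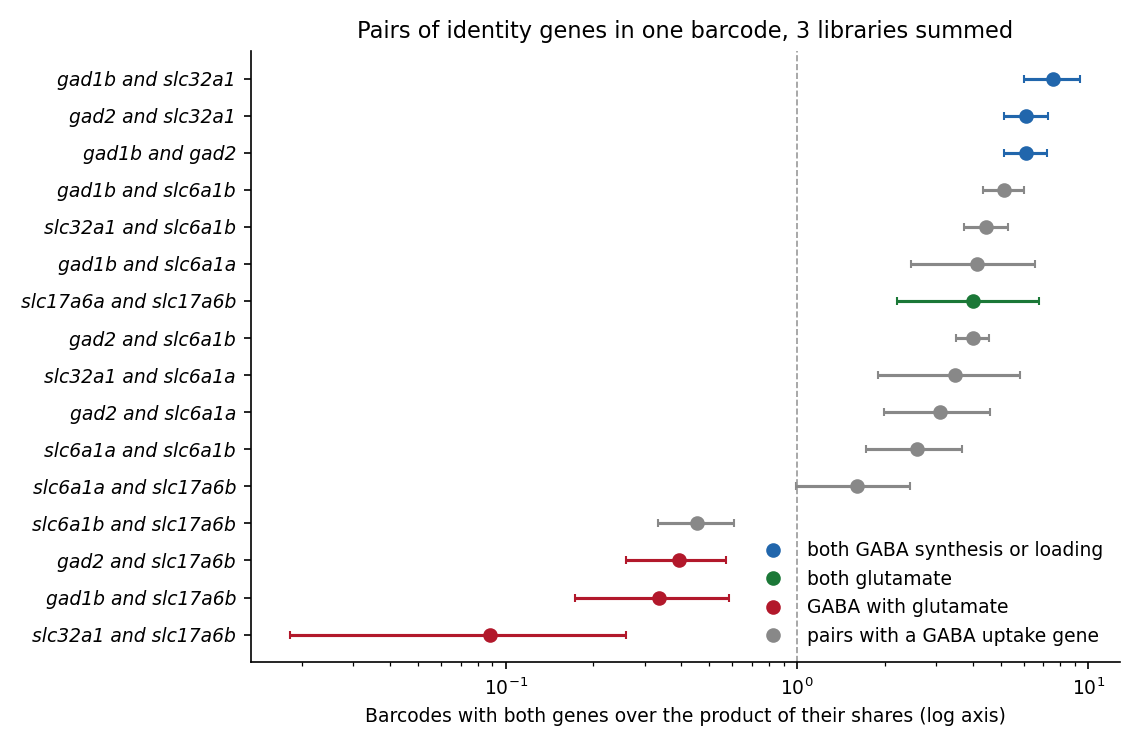
Barcodes with both genes of a pair over the sum within depth bins of the product of their shares, summed over the 3 libraries, for the 16 pairs with a product of at least 3 (log axis); bars are 95% counting intervals and the line marks 1. Pairs within the GABA set lie between 6.11 and 7.56, and pairs of a GABA gene with slc17a6b between 0.0884 and 0.392.

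To see which cells hold these genes, 11207 barcodes of all libraries were grouped into 17 clusters by a clustering that left the 8 members out. Of these, 8 could be named by markers, among them oligodendrocyte, radial glia, microglia and habenula neuron-like ones, and the brain label was thus met by its cell types. Levels by cluster are descriptions. The GABA set had 70.0% of its UMIs in cluster 2, led by si:dkey-175g6.2, atp1b1b and the neuropeptide Y gene npy. There gad2 was at 1006 CPM (932 to 1085) and in 20.9% of 1684 barcodes, at a median of 330.5 UMIs. The next levels of gad2 were 368 CPM in cluster 4 (aldoca, barhl2), 249 CPM in cluster 5 (uts1, cbln1) and 225 CPM in cluster 9 (pax2a, en2a), and the intervals of these overlapped. For gad1b and slc32a1 as well, cluster 2 was highest and cluster 4 came next.

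The levels of slc17a6b were highest in cluster 5, led by uts1, cbln1 and the PACAP precursor gene adcyap1b, with 4554 CPM (4162 to 4974) and 63.8% of 287 barcodes. Cluster 13, habenula neuron-like by gng8, kiss1 and gpr139, was second at 2322 CPM (2031 to 2644) and 47.1% of 276 barcodes. Cluster 2 followed at 949 CPM (877 to 1026), cluster 9 at 794 CPM (606 to 1023) and cluster 4 at 572 CPM (496 to 656). Cluster 3, the only cluster named glutamatergic neuron-like (8 such markers), was lower, at 343 CPM (288 to 405) and 7.48% of 1645 barcodes. Its median depth was 222 UMIs, and it also had 7 cerebellar granule neuron and 8 newborn neuron or progenitor markers. The intervals of clusters 5 and 13 were clear of each other and of the rest, while those of clusters 2 and 9 overlapped. Cluster 2 was thus the GABA-richest cluster and also held 32.4% of all slc17a6b UMIs.

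Within cluster 2 the identities were still apart. It held 487 barcodes with the GABA set alone, 312 with the glutamate set alone and 19 with both, against a product of 113.2 (0.168, 0.101 to 0.262). Cluster 4 held 150, 150 and 3, against a product of 22.3 (0.135, 0.0278 to 0.394). In cluster 5, where slc17a6b is in most barcodes, 10 barcodes held both sets against 12.8 (0.780, 0.374 to 1.44), so no separation was detectable there. Clusters 2 and 4 therefore mixed barcodes of both identities rather than barcodes with both.

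Glial clusters were then read for the members. The gene slc6a1b was at 1235 CPM in cluster 2 and at 988 CPM (824 to 1176) in cluster 17, radial glia-like with her4.1 and cx43, where it was in 14.6% of 301 barcodes. Few barcodes carried that level: the 5 richest of each library held 67.6% (Ctrl), 69.8% (Zn10) and 61.7% (Zn15) of its UMIs in cluster 17. The other radial glia-like cluster, cluster 10 with cyp19a1b, had 36.6 CPM (9.98 to 93.8) and 0.968% of 310 barcodes, at median depths of 301 and 353 UMIs in clusters 10 and 17. The 2 radial glia-like clusters did not overlap. Oligodendrocyte precursor-like barcodes had slc6a1b at 299 CPM and in 113 of 866, and oligodendrocyte-like barcodes at 215 CPM and 6.72%, against 15.7 CPM and 0.467% in microglia-like barcodes, where depth was higher than in the oligodendrocyte-like ones. In the same glial clusters gad2 was at 46.7 CPM or less. The glutamate gene slc17a6b was at 137 CPM (58 UMIs, in 38 of 1236 barcodes) in the oligodendrocyte-like cluster. In the small unnamed cluster 11 (epd, cp) it was at 281 CPM from 10 UMIs in 4 of 58 barcodes, with 8 of the UMIs from Ctrl, and slc6a1b had 0 UMIs. The copy slc6a1a had 102 UMIs in clustered barcodes, of which 44 lay in cluster 2 and 23 in the oligodendrocyte precursor-like cluster. VGLUT1 (slc17a7a) had 10 of its 15 clustered UMIs in cluster 16, led by fat2 and vsnl1a, at 99.4 CPM (47.7 to 182.9); slc17a6b was at 438 CPM there. Of those 10 UMIs, 7 came from Zn10 (289 CPM), 2 from Ctrl (61.2 CPM) and 1 from Zn15 (22.9 CPM). Without Zn10 the level was 39.3 CPM.

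**Figure D4:**
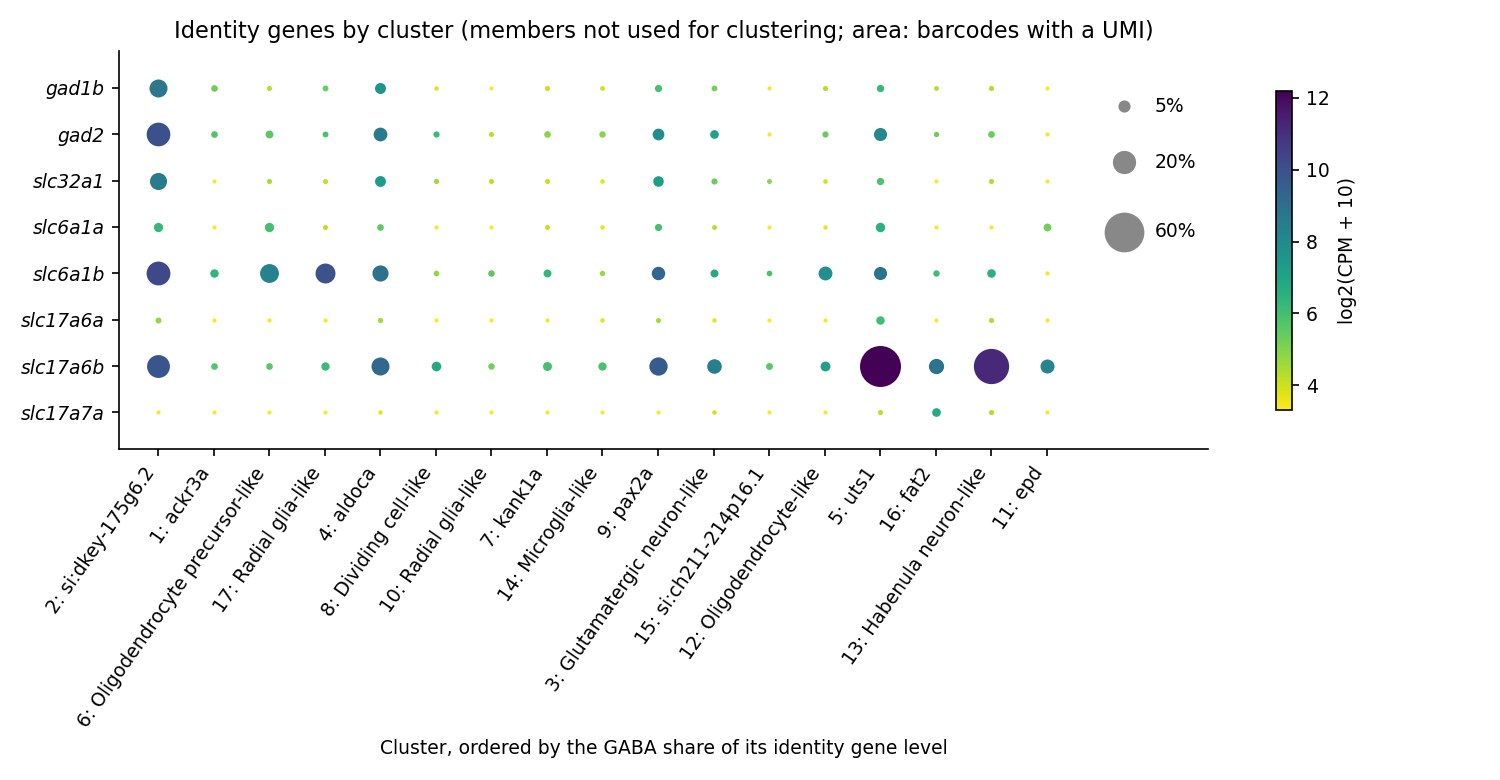
The 8 genes (rows) in 17 clusters (columns, by number and leading genes), all libraries together; colour is log2(CPM + 10) and the area of a point is the share of barcodes with the gene. The GABA genes peak in cluster 2, slc17a6b in clusters 5 and 13, slc17a7a in cluster 16, and slc6a1b in clusters 2 and 17.

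Over the 17 clusters, gad1b and gad2 followed each other with a Pearson r of 0.94 on log2(CPM + 10), and gad2 and slc17a6b with 0.60; the points share libraries and differ in depth. The genes whose levels over clusters were most like the GABA set, among 2554 genes, were ebf3a (a transcription factor, r = 0.859), clstn2 (a calsyntenin), rnd1a, nsg2 and glipr1b, all at 0.853 or more. Most like slc6a1a and slc6a1b together were si:dkey-35i13.1 (0.827), dipk1aa (0.822), gad1b (0.803), the transcription factor gene NPAS3 (0.797) and si:ch211-247j9.1 (0.776). Most like the slc17a6 pair were adcyap1b (0.898), C7H4orf48 (0.889), si:ch73-119p20.1 (0.885), nsfa (the vesicle fusion ATPase, 0.883) and madd (0.882). Most like slc17a7a were fat2 (a cadherin of cerebellar granule cells in mammals, 0.859), the calcium pump atp2b4 (0.835), the vesicle fusion protein snap25b (0.816), the calcium sensor vsnl1a (0.807) and dlg1 (0.772), with slc17a7a itself on 15 UMIs.

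The GABA set was then compared between libraries inside clusters. In cluster 2 the GABA set was at 1636 CPM in Ctrl, 2021 CPM in Zn10 and 1755 CPM in Zn15. The ratios were 1.23 (1.08 to 1.41) for Zn10 over Ctrl and 1.07 (0.922 to 1.25) for Zn15 over Ctrl. In cluster 4 the GABA set was at 656, 823 and 658 CPM, and the interval of the Zn15 to Ctrl ratio was 0.736 to 1.36. In the library sums the Zn15 to Ctrl ratio was 0.638 (0.568 to 0.716), below both of these intervals. On fewer UMIs, the ratio was 0.706 (0.415 to 1.19) in cluster 3 and 0.472 (0.150 to 1.29) in cluster 5. Of the 5 clusters compared, 2 had Zn15 above and 2 below Ctrl, cluster 4 was level, and 0 intervals left out 1. Cluster 2 held 18.6%, 16.8% and 10.0% of the clustered barcodes of Ctrl, Zn10 and Zn15, but its leading genes also differed between libraries (atp1b1b at 1411, 1045 and 603 CPM), so its size is not read as a difference in cells. Under a clustering on 1000 variable genes the GABA set ratio in its main cluster was 0.818 for Zn10 over Ctrl and 0.894 for Zn15 over Ctrl.

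The gene slc17a6b differed between libraries within cluster 5, which was picked after its values were seen. It was at 2309 CPM in Ctrl, 6359 CPM in Zn10 and 5641 CPM in Zn15, and in 52.0%, 75.0% and 67.0% of 100, 72 and 115 barcodes. Both treated libraries stood above Ctrl, with ratios of 2.75 (2.15 to 3.55) and 2.44 (1.91 to 3.15). The value rested on where the cluster was drawn: with the members kept in the clustering the ratios were 1.69 and 1.60, and at resolution 0.5 they were 1.37 and 1.03. When only barcodes of 200 genes or more were clustered, they were 1.52 and 0.755, below 1 for Zn15. Other genes moved in that cluster too, with the neuronal RNA-binding protein gene elavl4 at 4427, 6684 and 6736 CPM and adcyap1b at 2713, 2076 and 1712 CPM. In the habenula neuron-like cluster slc17a6b was at 1915, 2833 and 2218 CPM, with ratios of 1.48 (1.08 to 2.04) for Zn10 over Ctrl and 1.16 (0.804 to 1.66) for Zn15 over Ctrl. For slc6a1b in cluster 2 the ratio of Zn10 over Ctrl was 1.49 (1.28 to 1.75), in cluster 4 it was 1.85 (1.23 to 2.79), and in the radial glia-like cluster 17 it was 1.18 (0.743 to 1.88). In cluster 9 it went the other way, at 721 CPM in Ctrl (18 UMIs) and 154 CPM in Zn10 (3 UMIs), a ratio of 0.214 (0.0403 to 0.731). Of the 8 clusters compared for slc6a1b, Zn10 was above Ctrl in 5 and below it in 3, and 3 intervals left out 1.

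Barcodes with the GABA set alone and barcodes with the glutamate set alone were then compared for all other genes. These groups come from the members' own counts, so only genes outside both sets are given. Genes at least 1.5-fold higher in the GABA barcodes in each of the 3 libraries were 3.11% of 4308 tested, and genes higher in the glutamate barcodes 4.53%. Of the 7 tested transcription factor genes of GABA neurons, 6 were higher in GABA barcodes and 0 in glutamate barcodes. Of the 12 tested transcription factor genes of glutamate neurons, 9 were higher in glutamate barcodes and 0 in GABA barcodes. The median log2 ratio (GABA over glutamate) was 3.64 for the first list and −3.12 for the second, where all genes tested had −0.02.

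Among the GABA neuron factors, the forebrain homeobox gene dlx2a had 23 UMIs in GABA barcodes and 0 in glutamate barcodes. With the 0 set to a floor of 3 UMIs it was 9.24-fold higher, and the interval of its ratio began at 6.93. Its relative dlx5a had 28 against 1, and six3a had 33 against 1. The midbrain and hindbrain factors gata3 and tal1 had 30 against 2 and 40 against 3. All 5 were nearly absent from glutamate barcodes. The LIM homeobox gene lhx1a was higher by less, at 498 against 233 CPM (2.14, 1.67 to 2.74), and pax2a, at 343 against 247 CPM (1.39, 1.07 to 1.81), was not past the threshold in all libraries.

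Among the glutamate neuron factors, the pallial T-box genes tbr1b and eomesa had 23 and 32 UMIs in glutamate barcodes and 0 in GABA barcodes. With the 0 set to a floor of 3 UMIs they were 6.36-fold and 8.85-fold higher. The intervals of their ratios (GABA over glutamate) reached up to 0.210 and 0.147. The basic helix-loop-helix gene neurod6b had 38 against 1, and lhx9 had 74 against 7. The genes pou4f1 and pou4f2, used by habenular and other projection neurons, had 60 against 4 and 57 against 4. Also higher were neurod6a, barhl2 and neurod1. The genes bhlhe22, tlx3b and uncx were not past the threshold in all 3 libraries. For tlx3b there were 20 UMIs against 1, with 0 in both groups of Ctrl. With 9 UMIs in glutamate and 12 in GABA barcodes, uncx lay on the GABA side (GABA over glutamate 1.61, 0.622 to 4.32). For bhlhe22 these were 16 and 9 UMIs (0.678, 0.264 to 1.63). Both intervals held 1.

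**Figure D5:**
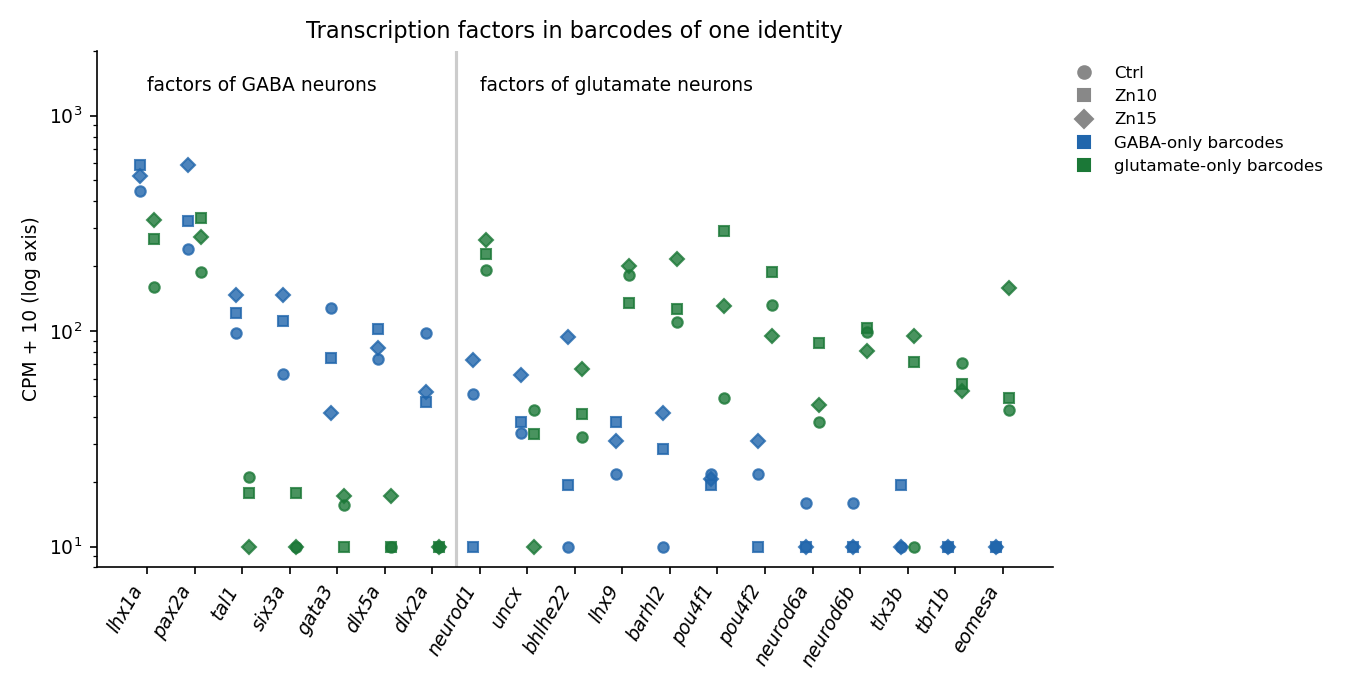
Level (CPM + 10, log axis) of the 7 GABA neuron and 12 glutamate neuron transcription factor genes (columns). Colour separates barcodes with the GABA set alone from those with the glutamate set alone, and the marker shape gives the library. Genes of the first list are higher in the GABA barcodes, by less for lhx1a and pax2a, and pax2a is not higher there in Zn10. Most genes of the second list are higher in the glutamate barcodes.

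Beyond these factors, 10 genes with high ratios on each side, among those of at least 40 UMIs, were looked at after the values were seen. On the GABA side they included si:dkey-175g6.2 (224 UMIs against 7, 38.6-fold), npy (92 against 3, in 22 barcodes), the G protein signalling regulator rgs4 (82 against 4), znf385c (55 against 3), nxph1, a neurexophilin gene (35 against 6), and slc6a1b itself (832 against 61; 16.4, 12.7 to 21.7). On the glutamate side were the neuritin gene nrn1a (68 against 2), adcyap1b (223 against 10), dlg1 (58 against 5) and nwd2 (345 against 35), beside pou4f1, pou4f2 and barhl2. This side did not strictly follow the pooled ratio (GABA over glutamate), since lhx9, at 0.114, was left out although it lay past nwd2, at 0.122. Ependymin (epd) was there as well, but 387 of its 523 UMIs came from Zn15, they lay in 42 barcodes, and barcodes with neither set had more, at 3015 to 3686 CPM.

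Genes of transmitter metabolism separated less. The GABA transaminase gene abat was at 120.5 CPM in GABA and 64.4 CPM in glutamate barcodes (1.87, 1.15 to 3.09). The glutaminase gene glsb, which makes glutamate from glutamine, was at 58.9 against 126.6 CPM (0.465, 0.271 to 0.773). The neuronal glutamate transporter gene slc1a1 was past the threshold on the GABA side, with 37 UMIs against 27 and a pooled ratio of 1.65 whose interval reached down to 0.979. Of 11 tested genes of glutamate synthesis, uptake and recycling, only glsb and slc1a1 were past it in all 3 libraries, 1 on each side. The pooled ratio of slc1a2b was larger, with 41 UMIs in GABA against 18 in glutamate barcodes (2.75, 1.54 to 5.08). In Ctrl it went the other way, at 35.3 against 49.9 CPM. Barcodes with neither set had more slc1a2b, at 202.7 CPM in Ctrl, 340.7 CPM in Zn10 and 292.3 CPM in Zn15. The aromatic amino acid decarboxylase gene ddc had 22 UMIs in GABA and 6 in glutamate barcodes.

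The rest of the pathway was also compared between libraries. Of 14 tested genes of glutamate synthesis, uptake and recycling, 1 was past 1.5-fold upward in Zn10 over Ctrl and 2 in Zn15 over Ctrl, with 0 downward in both, against the backgrounds of 16.4% and 11.4% upward given above. The astroglial glutamate transporter gene slc1a2b was at 168 CPM in Ctrl, 277 CPM in Zn10 and 264 CPM in Zn15. Both treated libraries were above Ctrl, at 1.65 (1.39 to 1.95) and 1.57 (1.35 to 1.82). The glutaminase gene glsa was at 14.7, 11.3 and 25.1 CPM, highest in Zn15 (1.70 over Ctrl, 1.01 to 2.92). The gene slc1a1 was at 0.507 (0.350 to 0.733) in Zn15 over Zn10.

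Of 2 tested genes of GABA synthesis, uptake and breakdown, 1 was past the threshold downward in Zn10 over Ctrl and 0 were in Zn15 over Ctrl, with downward backgrounds of 10.7% and 14.2%. That gene was the GABA transporter relative slc6a1l, at 43.6 CPM in Ctrl, 20.5 CPM in Zn10 and 37.3 CPM in Zn15, with Zn10 lowest (0.471, 0.272 to 0.780). Of 8 tested GABA receptor genes, 1 was past it upward in Zn10 over Ctrl (gabra4, 1.82, 1.18 to 2.80) and 2 downward in Zn15 over Ctrl, against 16.4% of genes upward and 14.2% downward. Over 8 genes, both counts lay within 1 gene of what these shares give. The median log2 ratio of these receptor genes was 0.25 and −0.17, near the 0.09 and −0.06 of all genes.

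Both transcription factor lists held genes past the threshold in each direction. Of 11 tested GABA neuron factors, 2 were past 1.5-fold upward and 2 downward in Zn10 over Ctrl; of 12 tested in Zn15 over Ctrl, 1 was upward and 3 downward. The backgrounds were 16.4% upward and 10.7% downward in Zn10 over Ctrl, and 11.4% and 14.2% in Zn15 over Ctrl. Examples were six3a at 2.03 (1.14 to 3.66) and gata3 at 0.415 (0.186 to 0.840) in Zn10 over Ctrl, and ascl1a at 1.88 (1.08 to 3.37) in Zn15 over Ctrl. Of 16 tested glutamate neuron factors, 3 were upward and 3 downward in Zn10 over Ctrl, and 4 upward and 3 downward in Zn15 over Ctrl, against the same backgrounds. The habenular gene pou4f1 was at 27.7, 61.5 and 24.5 CPM in Ctrl, Zn10 and Zn15, highest in Zn10 as slc17a6b was (2.22, 1.49 to 3.33). The habenula neuron-like cluster 13 held 2.38%, 3.66% and 1.85% of the clustered barcodes of these libraries, in the same order. The part of cell makeup was not tested. The relative of pou4f1, pou4f2, was at 40.6, 62.6 and 26.9 CPM. The pallial gene eomesa was higher in Zn15 over Ctrl (ratio 1.66), the direction opposite to that of gad2.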

How the data were processed

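The authors deposited whole-number UMI counts per gene and barcode, 1 matrix per library. Cell Ranger 4.0.0 is named in the deposited file headers, and fastp, Seurat and build GRCz11 in the submitters' processing notes. The sources used here do not state cell calling settings or the annotation release. The members, lists and comparisons were chosen with earlier results of these data known.

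Counts were summed per library, cluster or barcode group and divided by the sum of all UMIs (CPM). The 1.5-fold rule used genes with at least 20 UMIs over the libraries compared; a count of 0 allows up to 3 UMIs, which is 1.77, 3.08 and 1.84 CPM in Ctrl, Zn10 and Zn15. For clusters, barcodes were kept from 100 genes and up to 30% mitochondrial UMIs (4629, 2459 and 4119), scaled to 300 UMIs and log-transformed; 2000 variable genes, 30 components, 15 neighbours and Leiden resolution 1.0 were used, without the 8 members and malat1, which took 27.0% to 32.3% of UMIs. A name needed at least 3 of a type's markers at least 2-fold higher, and the naming also used a minimum of 15 UMIs and the top 10 genes of a cluster. Clusters 2, 4, 7, 15 and 16 had 3 or more markers of a type but stayed unnamed. Among them, cluster 2 had 3 GABAergic neuron markers and cluster 16 had 7 cerebellar granule neuron markers. This rule was set after the clusters were seen, and cluster 9 was left unnamed by hand. Doublets and free RNA were not removed. Named genes were all members, the 5 genes most like each group over clusters, and list genes past 1.5-fold with a ratio interval that left out 1. 1 list gene that met this rule is not reported here. Python 3.11.15, numpy 2.4.6, scipy 1.17.1, pandas 2.3.3, scanpy 1.11.5, leidenalg 0.10.2 and igraph 0.11.9 were used, and the procedures were tested on simulated data.

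Alternatives changed the scaling, barcode filters, thinning depth, detection threshold, clustering and low-count filter. Coordinates and sequences are left out, since no genome of build GRCz11 was used.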

Additional observations from a re-analysis of the deposited data

How the results depend on the processing

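Of 432 alternative values for 91 results, 337 stayed inside the counting interval of the value in the report or, for counts of genes, within 1.5 times that count. With barcodes of at least 200 genes, the CPM ratio of the GABA set was 0.483 for Zn15 over Ctrl and 0.425 for Zn15 over Zn10, and that of the glutamate set 0.699 and 0.436. Thinned to 400 UMIs, the ratio of shares in Zn15 over Ctrl was 0.535 (GABA set) and 0.599 (glutamate set), and that of the glutamate set in Zn15 over Zn10 was 0.496. With 2 UMIs required, the glutamate set share ratio was 1.68 for Zn10 over Ctrl and 0.596 for Zn15 over Zn10. Zn10 co-detection over product was 0.155 when thinned to 200 UMIs and 0.166 without the deepest 5% of barcodes. Thinned to 100 UMIs, the slc17a6a share ratio of Zn10 over Ctrl turned to 0.996. At that depth the gad1b share ratio was 1.01 for Zn15 over Ctrl and 0.995 for Zn15 over Zn10.

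Clustering choices moved cluster values most. With members kept, at resolution 0.5, on 1000 variable genes and with at least 200 genes, the highest gad2 level was 1779, 790.2, 1192 and 2436 CPM, and that of slc17a6b 3737, 2432, 2673 and 3799 CPM. For slc6a1b it was 2114, 998 and 3101 CPM with members kept, at resolution 0.5 and with at least 200 genes, and for slc17a7a 30.9 CPM with at least 200 genes. Leaving out each library in turn, added after seeing the data, gave 926.7 to 1123 CPM for gad2, 1105 to 1417 CPM for slc6a1b, 3838 to 5974 CPM for slc17a6b and 39.3 to 158.1 CPM for slc17a7a, where the lowest was without Zn10 and the highest without Zn15. The GABA set ratio in its main cluster was 0.893 (Zn15 over Ctrl) and 0.735 (Zn15 over Zn10) at resolution 0.5, and 0.818 (Zn10 over Ctrl), 0.894 and 1.09 on 1000 variable genes. In the report's clustering the main cluster of the glutamate set was cluster 2, with 32.3% of its UMIs. Its ratio there was 1.27 and 0.880 for Zn10 and Zn15 over Ctrl and 0.691 for Zn15 over Zn10. In cluster 5, where its level was highest, these were 2.74, 2.42 and 0.882. The main cluster of another clustering need not hold the same barcodes. There the ratios were 1.67, 1.58 and 0.943 with members kept, and 2.13, 2.43 and 1.14 on 1000 variable genes. Over Ctrl they were 1.69 and 1.42 at resolution 0.5, and 1.66 and 1.26 with at least 200 genes. For slc17a6b in its highest cluster, Zn10 over Ctrl was 1.69 with members kept, 1.37 at resolution 0.5, 2.12 on 1000 variable genes and 1.52 with at least 200 genes. Zn15 over Ctrl was 1.60, 1.03 and, with at least 200 genes, reversed to 0.755; Zn15 over Zn10 was 1.14 on 1000 variable genes and 0.496 with at least 200 genes. The cause was not tested.

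The GABA share among barcodes of one identity was 49.1% in Ctrl with at least 200 genes, and 53.3% in Ctrl and 43.0% in Zn15 with 2 UMIs required. This share and the within-cluster ratios under the members kept, 1000 variable genes and 200 genes were added after seeing the data. The 9 and 7 list genes past 1.5-fold upward in Zn10 and Zn15 over Ctrl were 17 and 14 with at least 5 UMIs, and 3 and 2 with at least 100. At 100 UMIs, 0 and 1 were downward in these (7 and 11 in the report), and 0 upward and 3 downward in Zn15 over Zn10 (6 and 13). With the report's 20 UMIs, 16.4% and 11.4% of all genes tested were upward and 10.7% and 14.2% downward in Zn10 and Zn15 over Ctrl. For Zn15 over Zn10 the shares were 9.11% upward and 18.5% downward. Such shares are not given here for 5 and 100 UMIs, so the counts there are not read as a result about the lists.

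No paired analysis was possible because each treatment had 1 library. Low depth limits slc17a6a and slc17a7a most.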

Other observations

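Genes of other transmitters were sparse. Of 18 such genes 5 had enough UMIs for the Zn10 to Ctrl ratio. The acetylcholine synthesis gene chata gave 22 UMIs in the Ctrl library but 3 in Zn10 and 1 in Zn15, with a ratio of 0.238 (0.0455 to 0.791) for Zn10 over Ctrl. The choline transporter gene slc5a7a did not follow it, at 15.3, 28.7 and 7.95 CPM, highest in Zn10. Over all libraries slc5a7a had 32 UMIs in barcodes with the glutamate set alone and 5 in those with the GABA set alone (15 and 4 barcodes), but in Zn15 the numbers were 2 and 3. The histamine synthesis gene hdc gave 5, 17 and 8 UMIs (a ratio of 5.92 for Zn10 over Ctrl, with an interval above 1). The decarboxylase gene ddc was at 15.3, 14.4 and 4.28 CPM, lowest in Zn15 as gad2 was (0.280, 0.103 to 0.662, over Ctrl).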
